A study of Homo sapiens with 6 samples.

Results

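The 10 genes described here encode non-collagen proteins of the extracellular matrix, and they were chosen by name: VCAN, FN1, TNC, SPARC, THBS1, THBS2, BGN, LUM, CSPG4 and FBN1. All 10 had exactly 1 feature with a single gene symbol in the deposited table, out of 24494 genes with such a feature. Expression was measured in tumours of 1205Lu, a metastatic human melanoma line, which had grown under the skin of immunodeficient NSG mice for about 6 weeks. The 3 Shp2 knockdown tumours carried a short hairpin RNA against Shp2, and the 3 non-target tumours a hairpin with no target. The labels name neither the hairpin's sequence nor the promoter that drives it. Whether each sample came from its own tumour and mouse is not given in the labels, so the spread between samples may be in part technical. Each sample is called a tumour here. Shp2 is the tyrosine phosphatase encoded by PTPN11, which passes growth factor signals on to the RAS-ERK cascade. The comparison asks which of these transcripts differ between knockdown and non-target tumours.

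Matrix glycoproteins such as fibronectin, the tenascins and the thrombospondins bind cell surface integrins and syndecans and set how firmly cells adhere. Proteoglycans such as versican carry long glycosaminoglycan chains, which hold water and bind hyaluronan, collagen and growth factors. In melanoma, tumour cells themselves make much of this matrix, and CSPG4 is known as a melanoma surface antigen.

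Of the 10 genes, 9 passed the filter on low values, a log2 value above 4 in at least 3 of the 6 arrays, and each of these 9 exceeded, on all 6 arrays, the level below which 95% of negative control features fell (the control limit). LUM did not pass. None of the 9 rose or fell at an adjusted p of 0.05, where 0.00797% of the 12541 genes compared did. Each of the 9 had an adjusted p of 1.00 in limma, as had every other gene that passed the filter and is named below, apart from PTPN11. Genes below the filter were not tested in this fit. The mean was lower in knockdown tumours for 5 of the 9 and higher for 4, with a median log2 difference of -0.05. Over all genes compared the mean was lower in knockdown tumours for 38.0%, and the median difference was 0.05. The widest difference was that of VCAN, -0.49, and in this fit the 95% intervals of the 9 differences all lay within a 2-fold change in either direction. That bound did not hold in every other fit, as VCAN was -0.70 (SE 0.21) without both arrays numbered 1.

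The start regions of 3 of these genes are shown because VCAN had the widest difference, and because TNC and THBS2 had the most similar course over the 6 arrays. Each run covers 250 bases before to 50 bases after the annotated start in RefSeq, build GRCh38.p14, read 5′ to 3′ on the gene's strand. VCAN lies at chr5:83471494-83471793 on the plus strand, TNC at chr9:115118108-115118407 on the minus strand and THBS2 at chr6:169253797-169254096 on the minus strand. Capitals mark the TATA box letters TATAA and the letters GGAATG of a TEAD site, on either strand.
VCAN: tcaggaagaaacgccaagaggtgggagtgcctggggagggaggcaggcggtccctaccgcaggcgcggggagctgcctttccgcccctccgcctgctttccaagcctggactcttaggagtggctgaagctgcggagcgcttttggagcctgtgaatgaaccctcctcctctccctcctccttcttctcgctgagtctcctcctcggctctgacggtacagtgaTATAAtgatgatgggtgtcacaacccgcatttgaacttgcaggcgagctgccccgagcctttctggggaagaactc
TNC: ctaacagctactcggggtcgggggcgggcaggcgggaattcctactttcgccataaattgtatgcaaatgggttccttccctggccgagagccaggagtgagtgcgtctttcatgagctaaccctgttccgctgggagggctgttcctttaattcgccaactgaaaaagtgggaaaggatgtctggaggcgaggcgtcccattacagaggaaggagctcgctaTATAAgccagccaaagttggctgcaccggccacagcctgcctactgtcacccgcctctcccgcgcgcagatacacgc
THBS2: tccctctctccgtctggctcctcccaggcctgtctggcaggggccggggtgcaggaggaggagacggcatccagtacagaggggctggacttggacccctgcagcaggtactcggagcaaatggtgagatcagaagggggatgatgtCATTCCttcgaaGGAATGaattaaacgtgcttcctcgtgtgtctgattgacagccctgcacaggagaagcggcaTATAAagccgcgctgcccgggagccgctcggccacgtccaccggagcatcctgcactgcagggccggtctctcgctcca

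RefSeq's table held a promoter for 9 of the 10 genes. TATAA was found in 4 of these 9 (VCAN, FN1, TNC and THBS2), against 21.1% of 27305 promoters of the same length, and its first base lay 26, 28, 27 and 29 bases before the start. GGAATG was found in SPARC, THBS1, THBS2 and FBN1, against 14.0% of all promoters. In THBS2 it occurred on both strands, 103 and 91 bases before the start. The GC box letters GGGCGG were present in 6 of the 9 (44.6% of all). The CRE letters TGACGTCA were found in FN1 only among the 9 (1.98% of all), and the AP-1 letters TGANTCA in none of the 9 windows (7.76% of all). Both strands were searched, and no motif overlapped one of another kind in the regions printed. These matches describe letters, not occupied sites.

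The knockdown itself was visible in the targeted gene. PTPN11 had log2 values of 6.92, 6.34 and 6.88 in knockdown tumours, against 8.47, 8.76 and 9.05 in non-target tumours. Its difference of -2.05 (SE 0.21) gave a limma adjusted p of 0.034 and an exact two-sided permutation p of 0.1, the smallest that 3 samples against 3 allow. The adjusted p was above 0.05 in 10 of 18 alternative fits.

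Among the large proteoglycans, VCAN encodes versican, a hyaluronan-binding chondroitin sulphate proteoglycan of provisional matrix. VCAN had log2 values of 8.32, 8.37 and 8.08 in knockdown tumours, against 8.39, 8.70 and 9.16 in non-target tumours. All 3 knockdown values were below all 3 non-target values, although knockdown 2 and non-target 1 were only 0.02 apart. Groups separated in this direction in 2.81% of all genes compared. The means were 8.26 ± 0.16 in knockdown and 8.75 ± 0.38 in non-target tumours (SD, n = 3 each), a knockdown level of 71.2% of non-target (95% interval 51.4 to 98.4%). The log2 difference was -0.49 (SE 0.21). Its unadjusted p was under 0.05, as for 2.54% of all genes, and that of the other 8 genes was not. VCAN did not pass, and without non-target 3 the difference was -0.29. Setting tumours of the same number side by side, the differences were -0.07, -0.32 and -1.08.

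CSPG4 encodes NG2, a proteoglycan that spans the membrane of melanoma cells and pericytes. In knockdown tumours its log2 values were 7.21, 8.12 and 7.70, against 7.17, 7.37 and 7.64 in non-target tumours. Knockdown 2 was the highest of the 6 and knockdown 1 fell inside the non-target range, so the groups overlapped. The difference of 0.28 (SE 0.24, 95% interval -0.25 to 0.81) was the most positive among the 9 and was no larger than the knockdown SD of 0.45. It was 0.06 without knockdown 2, 0.17 without non-target 1 and 0.51 without knockdown 1, and it passed in none of the fits with 1 array left out.

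BGN and LUM encode biglycan and lumican, small leucine-rich proteoglycans that bind collagen fibrils. BGN had log2 values of 8.44, 9.38 and 8.55 in knockdown tumours, against 8.36, 8.83 and 9.34 in non-target tumours. Both groups spanned nearly the same range, and the within-group SD of 0.50 was the widest of the 9 genes. The difference was -0.05 (SE 0.30), with a 95% interval of 60.7 to 153% of the non-target level. LUM was 1.20, 1.84 and 2.01 in knockdown tumours and 1.85, 2.04 and 1.70 in non-target tumours. All 6 LUM values were below the control limit of their own array. They were also below the filter value of 4, so LUM was left out of the main fit. With no filter on low values its difference was -0.18 (SE 0.22, unadjusted limma p of 0.435).

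FN1 encodes fibronectin, the adhesive glycoprotein that integrins assemble into fibrils. Its log2 values were 11.54, 11.84 and 11.71 in knockdown tumours, against 11.57, 11.77 and 11.71 in non-target tumours. The groups lay on top of each other, with the smallest within-group SD of the 9 genes, 0.13. The difference was 0.01 (SE 0.16), and its 95% interval corresponds to 78.8 to 129% of the non-target level. The feature is annotated to an Ensembl transcript on chromosome 2, from 216225177 to 216300895 on the minus strand of GRCh37, and gives 1 value for the gene, so splice forms of fibronectin were not resolved.

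FBN1 encodes fibrillin-1, the core of the microfibrils that hold latent TGF-beta. FBN1 was 7.42, 7.49 and 7.21 in knockdown tumours, against 7.33, 7.53 and 7.80 in non-target tumours. Knockdown 3 was the lowest and non-target 3 the highest of the 6, as for VCAN, while the other values interleaved. The difference of -0.18 (SE 0.18) was smaller than the non-target SD of 0.24. It was -0.058 without non-target 3, -0.098 without knockdown 3 and -0.29 without non-target 1.

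TNC, SPARC, THBS1 and THBS2 encode matricellular proteins, which modulate adhesion and signalling more than they build structure. Tenascin-C, the product of TNC, weakens the adhesion of cells to fibronectin. TNC had log2 values of 10.62, 11.05 and 11.37 in knockdown tumours, against 10.71, 10.95 and 11.09 in non-target tumours. The knockdown tumours held both the lowest and the highest value, and the difference was 0.09 (SE 0.21, 95% interval -0.38 to 0.57).

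SPARC encodes osteonectin, a collagen- and calcium-binding glycoprotein. SPARC was 7.11, 7.25 and 7.71 in knockdown tumours, against 7.58, 7.54 and 7.68 in non-target tumours. Knockdown 1 and 2 were below all non-target values and knockdown 3 was above them. The spread was wider in knockdown tumours (SD 0.31) than in non-target tumours (SD 0.07), with no test of that difference. The mean difference was -0.24 (SE 0.19). It was -0.12 without knockdown 1 and -0.42 without knockdown 3.

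THBS1 and THBS2 encode thrombospondin-1 and thrombospondin-2, related inhibitors of angiogenesis that bind CD36 and CD47. Of the pair, thrombospondin-1 is the one known to activate latent TGF-beta. THBS1 was 8.58, 9.07 and 9.29 in knockdown tumours, against 9.07, 9.08 and 9.31 in non-target tumours. Knockdown 1 stood below the other 5 values, which lay close together. The THBS1 difference was -0.17 (SE 0.20) with all arrays and 0.03 without knockdown 1. THBS2 was 10.77, 11.08 and 11.34 in knockdown tumours, against 10.66, 11.05 and 11.36 in non-target tumours. Its groups covered the same range, and the difference was 0.04 (SE 0.22, 95% interval -0.45 to 0.53). The THBS1 feature is annotated to an Ensembl transcript on chromosome 15, from 39873294 to 39891667 on the plus strand of GRCh37.

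**Figure D1:**
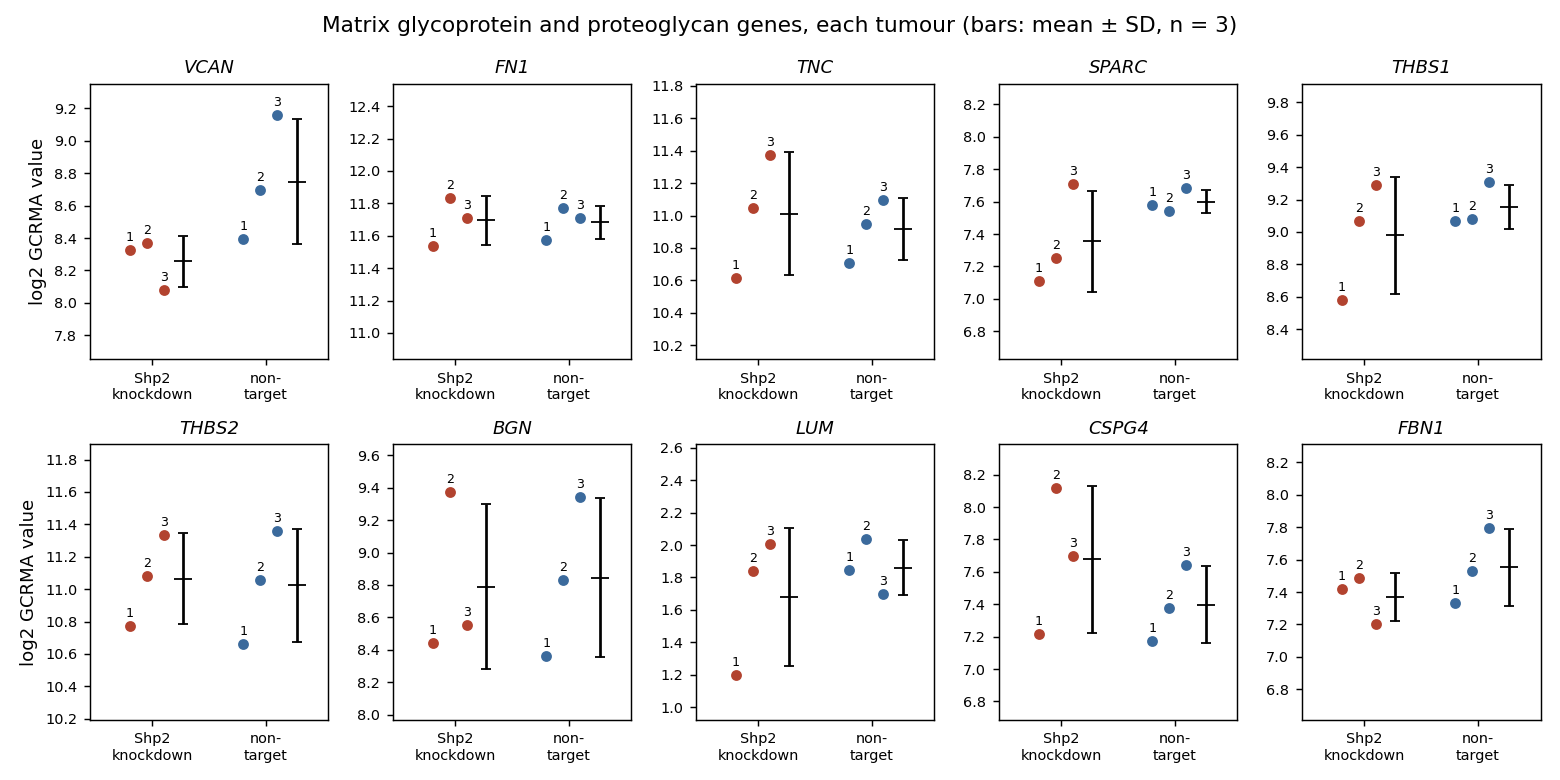
Log2 GCRMA value of each of the 10 genes in each tumour, with Shp2 knockdown left of non-target; numbers are the tumours' sample numbers, and bars show mean ± SD (n = 3). Each panel spans the same number of log2 units, and VCAN is the panel in which the groups do not overlap.

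**Figure D2:**
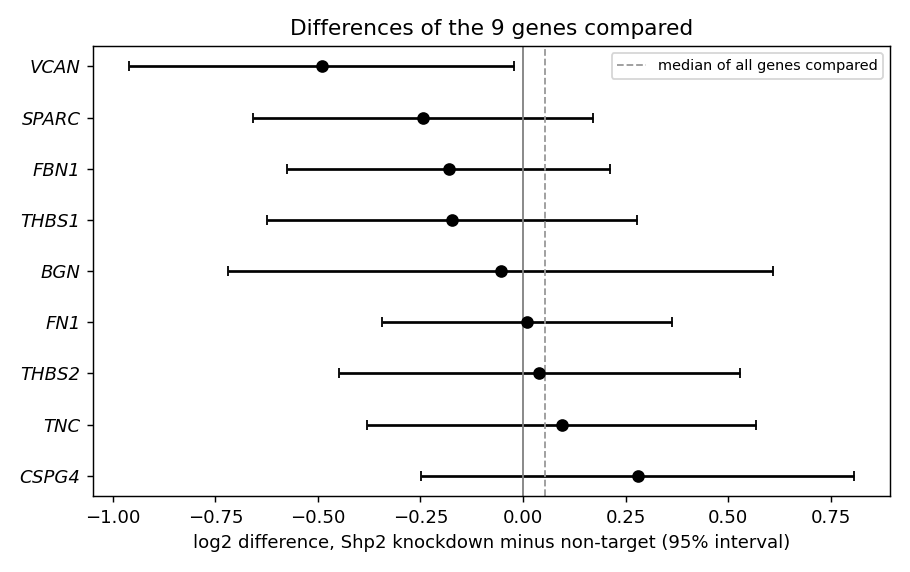
Log2 difference, Shp2 knockdown minus non-target, with its 95% interval from limma, for the 9 genes compared. The interval of VCAN, -0.96 to -0.02, lies below 0, and the other 8 include it; the dashed line is the median of all genes compared, 0.05.

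The median within-group SD of the 9 genes was 0.29, against 0.23 over all genes compared. Their median absolute difference between groups was 0.17, against 0.12. The SD describes single tumours and the difference compares group means, so these are unlike measures. Arrays numbered 1 held the lowest value of the group for 7 of the 9 genes in knockdown tumours and for 8 of 9 in non-target tumours. The same was true of 56.0% and 61.5% of all genes compared. These arrays also had the smallest contrast between positive and negative control features, 4.11 against 4.44 and 4.47 in the other knockdown tumours, and 3.64 against 4.20 and 4.39 in the other non-target tumours. Without non-target 1 the mean was lower in knockdown tumours for 8 of the 9 genes, against 53.7% of all genes. Without knockdown 1 it was lower for 3 of 9, against 32.1% of all genes, and without both arrays numbered 1 for 5 of 9, against 42.0%. With each array centred on its median it was lower for 7 of 9, against 48.6% of all genes. The direction for FN1, TNC, THBS1, THBS2 and BGN changed with at least 1 such choice. VCAN, SPARC and FBN1 were lower and CSPG4 higher in all 18 alternatives, none with an adjusted p under 0.05. Alternatives that alter only the filter, the feature used, the test or the replicate block cannot move the difference of a gene with 1 feature. Their unchanged direction is therefore no added evidence.

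**Figure D3:**
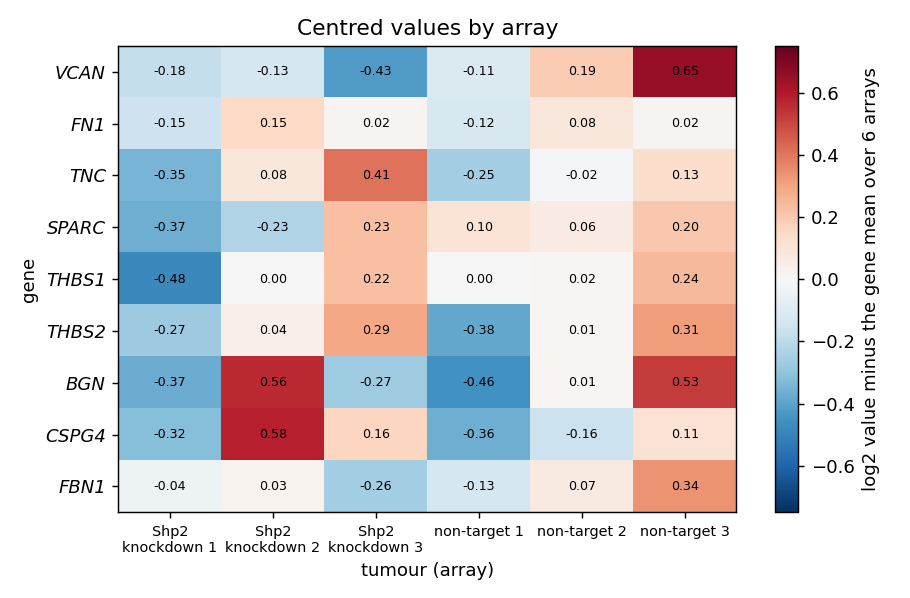
Log2 value of each of the 9 genes minus that gene's mean over the 6 arrays; columns are tumours, with Shp2 knockdown left of non-target. Non-target 3 is the column with a positive value for every gene, and knockdown 1 the column with a negative value for every gene.

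Within the set, the root mean square difference between centred log2 values over the 6 arrays measured how alike the courses of a pair of genes were. It was smallest for TNC and THBS2, at 0.11, and next for SPARC and THBS1, at 0.12, and it was 0.18 for VCAN and FBN1. The widest was that of VCAN and CSPG4, at 0.48. The arrays differ in the control contrast given above, and its part in these values was not tested. For the 3 genes with the widest range, the nearest other genes were named. For VCAN these were COL12A1, a fibril-associated collagen, at 0.072, and MCAM, a melanoma cell adhesion molecule, at 0.12. COL12A1 had log2 values of 9.24, 9.34 and 8.92 in knockdown tumours, against 9.34, 9.56 and 9.91 in non-target tumours. The MCAM feature, between 3.78 and 4.66, was under the control limit on all arrays. For BGN the nearest were PLD2, a phospholipase, and RBMS2, an RNA-binding protein gene, both at 0.11. Both were above the control limit on knockdown 2 and non-target 3 only. For CSPG4 they were GTF3C5, a subunit of an RNA polymerase III factor, and the kinase gene IKBKE, both at 0.059. IKBKE was above the control limit on knockdown 2, knockdown 3 and non-target 3 only. How close a match arises by chance among all genes compared was not tested.

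Other matrix genes gave no call either. LTBP1, DCN, POSTN, VWF and FAP each stand in more than 1 of the lists below. Of 23 further proteoglycan genes, 12 were compared, 0 rose, 0 fell and 12 did not pass, with 4 higher and 8 lower means in knockdown tumours and a median difference of -0.03. PRELP, a collagen-binding leucine-rich proteoglycan, had log2 values of 6.47, 5.87 and 6.77 in knockdown tumours, against 6.43, 7.28 and 8.02 in non-target tumours. The PRELP groups overlapped, and the difference was -0.88 (SE 0.37). ESM1, a proteoglycan secreted by endothelial and some tumour cells, differed by 0.76 (SE 0.39), with knockdown 3 alone above the control limit. DCN, which encodes decorin, was below the filter like LUM.

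Among 68 further matrix glycoprotein genes, 42 were compared and none of these passed, with 18 higher and 24 lower means and a median difference of -0.01. MFAP4, a microfibril-associated glycoprotein, was 6.18, 7.10 and 6.99 in knockdown tumours, against 5.83, 6.19 and 5.88 in non-target tumours. Only knockdown 1 and non-target 2 were in reversed order, and the difference was 0.79 (SE 0.24). CTGF, which encodes a matricellular protein of the CCN family, was 7.14, 6.87 and 6.65 in knockdown tumours, against 7.10, 7.53 and 7.92 in non-target tumours, a difference of -0.63 (SE 0.23). TNR, which encodes tenascin-R, differed by 0.96 (SE 0.34) and exceeded the control limit on 2 arrays.

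Receptors of these proteins gave 19 genes compared of 23 listed, with 0 calls, 12 higher and 7 lower means and a median difference of 0.07. SDC4, which encodes syndecan-4, a fibronectin co-receptor, was 9.96, 10.31 and 10.05 in knockdown tumours, against 9.60, 9.74 and 9.95 in non-target tumours. All 3 knockdown values were above all 3 non-target values, as in 3.86% of all genes, with a difference of 0.34 (SE 0.17, adjusted limma p of 1.00). The integrin subunit genes ITGA8 and ITGA9, whose products bind tenascin-C, differed by 0.81 (SE 0.36) and -0.67 (SE 0.37), and were above the control limit on 1 and 2 arrays.

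Proteases that cleave these proteins or activate those that do, together with the urokinase receptor, gave 13 genes compared of 22 listed. There were 0 calls, and the median difference was -0.03. CTSL1, which encodes cathepsin L, differed by 0.36 (SE 0.22), and PLAUR, the urokinase receptor gene, by 0.34 (SE 0.23). ADAMTS9, which encodes a versican-cleaving metalloprotease, differed by -0.30 (SE 0.24), and MMP9, at a difference of 0.43, was under the control limit on all arrays. Enzymes and transporters for glycosaminoglycan chains and hyaluronan gave 28 genes compared of 32, with 0 calls, 20 higher and 8 lower means and a median difference of 0.09.

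HAS2 encodes a hyaluronan synthase, whose product versican binds. HAS2 was 6.86, 6.93 and 7.88 in knockdown tumours, against 7.48, 7.82 and 8.02 in non-target tumours, a difference of -0.55 (SE 0.27) with overlap through knockdown 3. SLC35D1, a nucleotide sugar transporter gene needed for chondroitin sulphate, ran from 5.28 to 5.57 in knockdown tumours and from 4.59 to 5.26 in non-target tumours. Its knockdown values were all above its non-target values, as in 3.86% of all genes compared, although knockdown 3 and non-target 3 were 0.02 apart. The difference of 0.49 (SE 0.20) did not pass. CSGALNACT1, an enzyme that starts chondroitin chains, differed by -0.36 (SE 0.16) and was under the control limit on all arrays.

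The TGF-beta pathway, a known inducer of several of these matrix genes, gave 13 genes compared of 18 listed, with 0 calls and a median difference of 0.03. The receptor gene TGFBR1 was 8.11, 8.15 and 8.14 in knockdown tumours, against 8.30, 8.58 and 8.81 in non-target tumours. The groups did not overlap, with knockdown below as in 2.81% of all genes compared, and the difference was -0.43 (SE 0.17). SKI, a corepressor gene of the pathway, differed by 0.30 (SE 0.17), and FURIN, which encodes a protease that matures TGF-beta, by 0.26 (SE 0.18).

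**Figure D4:**
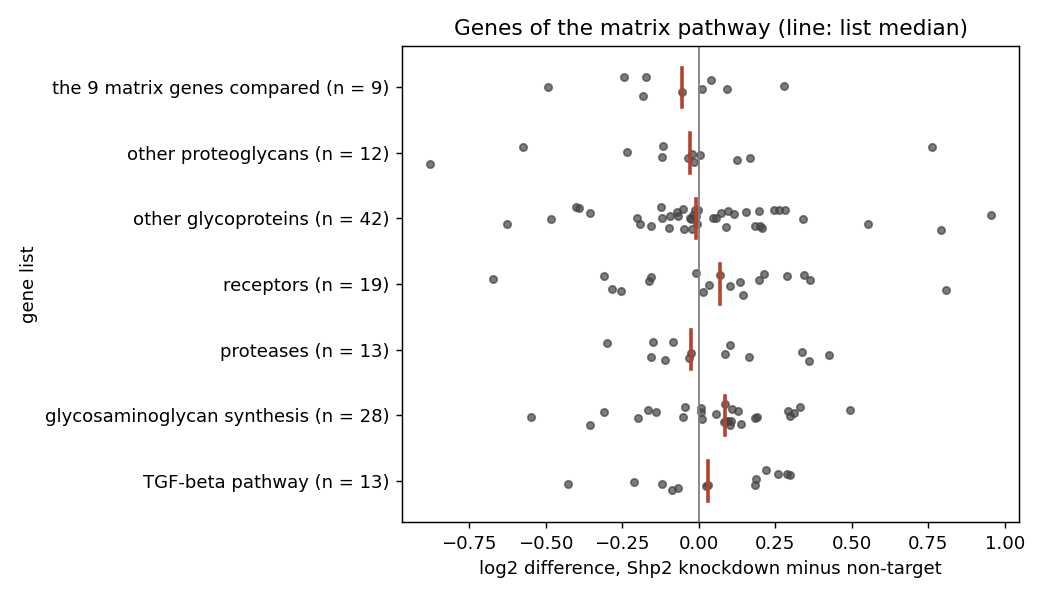
Log2 difference, Shp2 knockdown minus non-target, of each gene compared, with a row for the 9 matrix genes and for each of 6 related lists; the line marks each median. The medians lie between -0.05 and 0.09.

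Markers of other cells were examined because tumours are mixed tissue, and in such bulk samples fewer cells of a type and less RNA per cell cannot be told apart. Any host stroma is mouse, and whether mouse transcripts reach these features was not tested. Of 15 stromal fibroblast markers 9 were compared and 0 passed, with 7 higher and 2 lower means and a median difference of 0.06, and DCN, FAP, POSTN, PDPN, RGS5 and TAGLN were below the filter. The summed linear level of the 15 was 686 to 843 in knockdown and 653 to 727 in non-target tumours. COL1A1, PDGFRA and PDGFRB made up most of this sum. PDGFRA, a receptor gene that tumour cells can also express, was 7.50, 7.78 and 7.16 in knockdown tumours, against 6.98, 6.97 and 6.90 in non-target tumours. Its groups did not overlap, with knockdown above as in 3.86% of all genes compared, and the difference was 0.53 (SE 0.18). COL1A1 and PDGFRB differed by -0.04 and 0.03. Endothelial markers were compared for 3 of the 11 matched to the array, with summed levels of 210 to 328 in knockdown and 218 to 276 in non-target tumours, and VWF, KDR and TEK were below the filter, while PECAM1 was not analysed here. ENG, the most abundant of the 3, differed by 0.31 (SE 0.28), and CLDN5 and CDH5 were under the control limit. Macrophage markers were compared for 2 of 12, with summed levels of 217 to 425 in knockdown and 191 to 276 in non-target tumours, and CSF1R and CD163 were below the filter. CD68, which made up most of the macrophage sum, differed by 0.42 (SE 0.33), and TYROBP was under the control limit. The part of other cells in the matrix values was not tested. None of 8 skin and fat markers passed the filter.

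Only some of the melanoma lineage markers passed the filter, and the melanoma origin is that of the named cell line. Of 12 listed, 6 were compared and 0 passed, with 2 higher and 4 lower means and a median difference of -0.10. S100B, a neural crest marker, averaged 8.63 ± 0.44 in knockdown and 8.88 ± 0.44 in non-target tumours (SD, n = 3 each), a difference of -0.25 (SE 0.27), while AXL, a receptor kinase gene of dedifferentiated melanoma, and PAX3, a neural crest transcription factor gene, differed by 0.13 (SE 0.24) and 0.06 (SE 0.22). SOX10, another neural crest transcription factor gene, differed by -0.20 (SE 0.44). S100A1 and NGFR differed by -0.47 (SE 0.21) and -0.0078 (SE 0.16), and both were above the control limit on 0 arrays. The pigment cell genes MITF, MLANA, PMEL, TYR, DCT and TYRP1 were all below the filter. Among RNA quality and handling genes, 13 of 14 were compared and 0 passed, with 9 higher and 4 lower means and a median difference of 0.13. The heat shock protein genes HSPB1, HSPH1 and HSPA1B differed by 0.24 (SE 0.18), 0.11 (SE 0.25) and -0.14 (SE 0.24).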

How the data were processed

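RNA from 6 tumour samples was measured on Affymetrix arrays, 1 array per sample. The authors deposited GCRMA values, per the submitters' processing notes, read here as log2 values because they run from 0.049 to 13.3. GCRMA, as commonly defined, corrects background by probe sequence, normalizes arrays to each other and summarises the probes of a feature, so probes of 1 transcript share 1 value. Neither its version nor the array design is stated in the sources used here.

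Features with a single gene symbol were used, the one with the highest mean standing for a gene. Genes with at least 3 of 6 arrays above 4 were kept (12541). Groups were compared with limma 3.58.1 in R 4.3.3 (lmFit, eBayes, no covariate; 4 residual and 5.83 prior degrees of freedom), two-sided, with Benjamini-Hochberg adjustment over all kept genes at 0.05. The test was tried on simulated data of this comparison with 12541 genes, where it called 84% of changes of 1 log2 unit and 2% of changes of 0.5. In that simulation 50 genes changed at each of 0.5, 1, 1.5 and 2 log2 units, and all those at 1.5 and 2 were called. So many changed genes make the adjusted threshold easier to pass. The shares therefore do not carry over to the real comparison, where 1 gene passed. The simulation also called 12 unchanged genes, and its noise was drawn independently for each gene, without shifts shared by an array. The gene set, the lists and the naming rule were chosen with earlier results of these data known. All 10 genes and PTPN11 are named. From each list the 2 to 4 genes of smallest p are named, and from cell type and RNA quality lists the most abundant. For the 3 genes of widest range, the 2 genes nearest in centred pattern are named. Promoters are RefSeq's, build GRCh38.p14.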

Additional observations from a re-analysis of the deposited data

How the results depend on the processing

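With 3 arrays per group, the median SE was 0.21 for the 9 genes, and signal over background limited LUM. None of the 9 genes passed in any of 18 alternatives. VCAN ran from -0.67 to -0.29 with 1 array left out and from -0.70 to -0.49 otherwise, with the smallest adjusted p at 0.64. The sign turned for FN1 with arrays centred on their median (-0.036), for THBS2 with centring (-0.0072) and quantile normalization (-0.0023), and for FN1, TNC and THBS2 with the control contrast as a covariate (-0.073, -0.11 and -0.22), an alternative chosen after seeing the data like the fit without both arrays numbered 1. Leaving out 1 array gave -0.060 to 0.090 for FN1, -0.086 to 0.29 for TNC, -0.33 to 0.026 for THBS1, -0.14 to 0.21 for THBS2 and -0.35 to 0.19 for BGN, and, with no change of sign, -0.42 to -0.12 for SPARC, 0.059 to 0.51 for CSPG4 and -0.29 to -0.058 for FBN1. The count of the 9 with a lower mean in knockdown, 5, ran from 3 to 8 with 1 array left out and was 8 with the covariate. The count at an unadjusted p under 0.05, 1, was 0 with the ordinary test and ran from 0 to 1 with 1 array left out. PTPN11 stayed between -2.19 and -1.86 with 1 array left out, where it passed without non-target 1 (limma adjusted p = 0.021) and failed in the other 5 fits (0.096 to 0.27). It also no longer passed with no filter (-2.05), quantile normalization (-2.09), centring (-2.10), the ordinary test (-2.05) or the covariate (-2.16). The count of all genes past the threshold, 1, was 0 in each of these fits, 0 to 1 with 1 array left out and 2 without both arrays numbered 1. At an unadjusted p under 0.05 limma gave 319 genes and the ordinary test 359. The cause was not tested. With the sample number as a replicate block, 5 genes passed and 729 had an unadjusted limma p under 0.05. VCAN was -0.49 in that fit (SE 0.20, adjusted p = 0.77 in limma), and none of the 9 genes passed. The main fit took no pairs because the labels name none. Deviations of same-numbered tumours correlated at 0.42, -0.034 and 0.17, which with 3 arrays per group cannot settle whether the numbers mark pairs.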
